A study of Mus musculus with 24 samples.

Results

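The genes described here belong to the late maturation of red cell precursors, which includes enucleation and the clearance of organelles and proteins. They are Bnip3l, Ulk1, Trim58, Trim10, Foxo3, Xpo7, Tmcc2, Alox15, Ube2o and Riok3. The list was set by gene name, with earlier results of these data known. All 10 had at least 1 probe on the array, 21 probes in all, out of 37008 distinct gene names. RNA of liver and bone marrow of male mice of genotype Erfe-/- was measured on 24 single-colour Agilent arrays, with 4 mice at each of 0, 24 and 48 h after bleeding from the retro-orbital sinus. The 0 h mice are labelled as controls and those at 24 and 48 h as phlebotomised, so every group, the controls included, lacks Erfe. Erfe encodes erythroferrone, the hormone that erythroblasts release after blood loss. No wild-type group enters these comparisons, and the labels give neither the age of the mice nor whether the deletion is confined to a cell type. The question put to the data was whether these transcripts differed in marrow after bleeding and whether they appeared in liver, a tissue that in mice can take up red cell production under stress.

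An erythroblast that has finished dividing condenses its nucleus, pushes it out, and then strips the reticulocyte of mitochondria and ribosomes. Bnip3l (also called Nix) marks mitochondria for autophagy, Ulk1 is the kinase that starts autophagy in these cells, and Foxo3 is a transcription factor that drives autophagy and antioxidant genes during terminal maturation. Xpo7 is a nuclear transport receptor needed for nuclear maturation, and Trim58 is a ubiquitin ligase that targets the motor protein dynein before the nucleus is expelled. Ube2o is the ubiquitin-conjugating enzyme that marks unneeded proteins, ribosomes among them, for removal from reticulocytes. Alox15, the reticulocyte lipoxygenase, oxidises lipids of organelle membranes, but eosinophils and some macrophages express it too. Trim10 is an erythroid TRIM protein, Riok3 is a RIO-family kinase linked to terminal erythroid maturation, and Tmcc2 is a transmembrane coiled-coil protein abundant in late erythroid cells.

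Promoter sequences from RefSeq (build GRCm38.p6) were matched for 5 of the 10 genes, with 7 starts, namely Tmcc2 with 3 starts, Trim10, Trim58, Ulk1 and Foxo3. Those of the 3 genes whose liver signal lay near background are shown, as the 250 bases before the start, 5′ to 3′ on the strand of the gene. Capitals mark 3 motifs of erythroid factors found on either strand: the GATA factor site (searched as AGATAA, with its ending changed as AGATAG, and with its opening changed to give TGATAA or, with both changed, TGATAG), the KLF1 site (CCNCNCCC) and the TAL1 E-box (CAGNTG). For Tmcc2 the innermost start is shown (chr1:132367949-132368198, minus strand), because it was the only one of its starts with a GATA match. Trim10 lies at chr17:36869324-36869573 and Trim58 at chr11:58640215-58640464, both on the plus strand.
Tmcc2 innermost start: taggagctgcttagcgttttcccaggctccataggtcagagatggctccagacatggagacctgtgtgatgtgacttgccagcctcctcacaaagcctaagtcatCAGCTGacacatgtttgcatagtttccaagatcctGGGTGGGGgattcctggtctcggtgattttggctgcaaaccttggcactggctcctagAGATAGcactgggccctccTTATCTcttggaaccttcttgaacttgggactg
Trim10: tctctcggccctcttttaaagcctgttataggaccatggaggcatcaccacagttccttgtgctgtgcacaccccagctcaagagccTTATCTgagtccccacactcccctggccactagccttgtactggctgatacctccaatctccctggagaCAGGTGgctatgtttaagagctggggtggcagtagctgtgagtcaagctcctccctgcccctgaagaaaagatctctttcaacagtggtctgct
Trim58: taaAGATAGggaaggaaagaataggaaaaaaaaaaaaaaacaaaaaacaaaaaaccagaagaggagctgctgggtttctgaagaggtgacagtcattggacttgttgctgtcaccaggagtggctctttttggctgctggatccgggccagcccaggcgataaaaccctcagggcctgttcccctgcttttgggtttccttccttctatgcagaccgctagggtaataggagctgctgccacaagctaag
The Tmcc2 stretch held 2 GATA matches, at positions -52 to -47 and -33 to -28 from the start, with a KLF1 match at -110 to -103 and an E-box at -145 to -140. Trim10 held a GATA match at -163 to -158 and an E-box at -94 to -89, and Trim58 held a GATA match at -247 to -242. The promoters of Ulk1 and Foxo3, with a G+C content of 67.2% and 76.4%, held 3 and 4 KLF1 matches and 0 GATA matches. The outermost Tmcc2 start, at 78% G+C, held 5 KLF1 matches, 1 of them past the start. Over windows from 250 bases before to 50 bases after each of the 32851 starts in the table, 29.8% held a GATA match, 49.5% a KLF1 match and 51.4% an E-box. The FOXO site GTAAACA (3.65% of all starts), the hypoxia core ACGTG (19.6%), the TFEB site CACGTGAC (2.25%) and the STAT5 site TTCNNNGAA (8.3%) had 0 matches in the 7 windows. Motifs were counted where they overlapped. A match is a description of these letters only.

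Each level below is the log2 of a probe's signal over the 75th percentile of its own array, and a change is the later time minus 0 h on this scale, so that 1 unit is a factor of 2. That percentile was 361.2 to 473.1 intensity units on the liver arrays and 715.0 to 954.7 on the marrow arrays. Probes were tested in a tissue if the 4 arrays of some time all had them well above background. A gene was called changed if its limma p-value, adjusted over all genes tested in that tissue, was under 0.05. In bulk RNA, more cells of a type and more RNA per cell cannot be told apart. The array of marrow 24 h replicate 2 carried liver transcripts: its summed signal over 14 hepatocyte markers was 1780 times the array's 75th percentile, against 2.01 to 6.06 on the other 11 marrow arrays. The 2 probes of the deleted gene Erfe were above background in 1 of 48 readings over the 24 arrays. Marrow was erythroid by its markers, with 24 of 24 late erythroid markers above background on all 12 arrays, and liver had 14 of 14 hepatocyte markers on all 12.

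**Figure D1:**
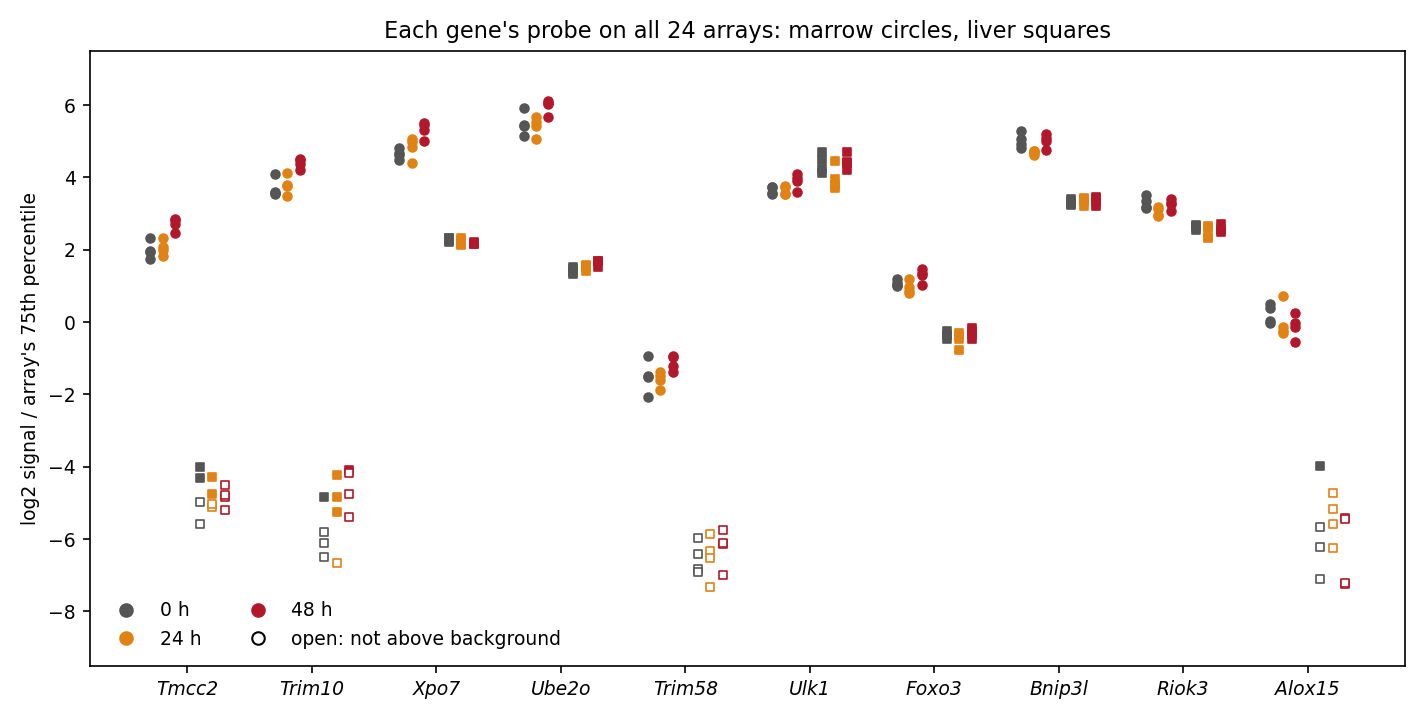
Level of each gene's probe on every array, as log2 signal over the array's 75th percentile, with marrow as circles, liver as squares, colour for the hours after phlebotomy and open symbols where the probe was not well above background. In liver, 12 of 12 Trim58 arrays are open, and the other genes near the background there are Alox15, Tmcc2 and Trim10; probes of different genes cannot be compared with each other.

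At 0 h, 4 genes were above background in marrow and at or near it in liver, and 6 were found in both tissues, as the plot of levels in both tissues shows. Trim58 was at -1.50 ± 0.46 (SD, n = 4) in marrow and reached the background threshold in 0 of 12 livers, which makes marrow at least 7.98-fold higher at 0 h. Trim10 was at 3.71 ± 0.26 in marrow and above background on 1 of 4 livers at 0 h, on 3 of 4 at 24 h and on 1 of 4 at 48 h. Its liver levels ran from -6.5 to -4.83 on the 0 h arrays, from -6.67 to -4.24 at 24 h and from -5.4 to -4.1 at 48 h. These ranges overlap and lie near the lowest signal that counted as above background on those arrays, which was between -5.4 and -3.96. The measured fold of marrow over liver at 0 h was 730, and with the dim livers set at that lowest signal it was at least 292. Tmcc2, at 1.99 ± 0.24 in marrow, was above background on 2 livers at 0 h, 2 at 24 h and 0 at 48 h. Alox15, at 0.23 ± 0.25 in marrow, was above background on 1 liver at 0 h and on 0 later. None of these 4 genes was above background on all 4 livers of any time, and they were therefore not tested in liver.

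The other 6 were well above background in liver. At 0 h the marrow level exceeded that of liver 16.7-fold for Ube2o (5.48 ± 0.32 against 1.42 ± 0.09), 5.19-fold for Xpo7, 3.26-fold for Bnip3l, 2.70-fold for Foxo3 and 1.59-fold for Riok3. Ulk1 was the exception, 1.66-fold higher in liver (4.38 ± 0.26) than in marrow (3.65 ± 0.11). The probes behind these values lie, in mm9, at chr1:134253714-134253773 for Tmcc2, chr17:37014159-37014218 for Trim10, chr11:58465809-58465868 for Trim58, chr11:116399379-116399438 for Ube2o, chr14:67606210-67606269 for Bnip3l and chr5:111213514-111213573 for Ulk1. The percentile that scales each array differs between the tissues, so these folds are relative to the bulk of each tissue's own transcripts.

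In marrow at 48 h, Tmcc2 rose 1.64-fold, and Trim10 and Xpo7 stood 1.6-fold higher without passing the threshold. Over all genes 1.23% were called in this comparison, and 1 of these 10 was. The median change of the 10 was 0.30, against 0.00 over all 21399 genes tested, and 7 of 10 were higher against 50.3% of all genes. The groups did not overlap for 3 of the 10, all of them higher at 48 h, whereas 12.7% of all genes did not overlap and 8% did so with 48 h higher. Among the 24 late erythroid markers, 7 were likewise apart with 48 h higher.

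**Figure D2:**
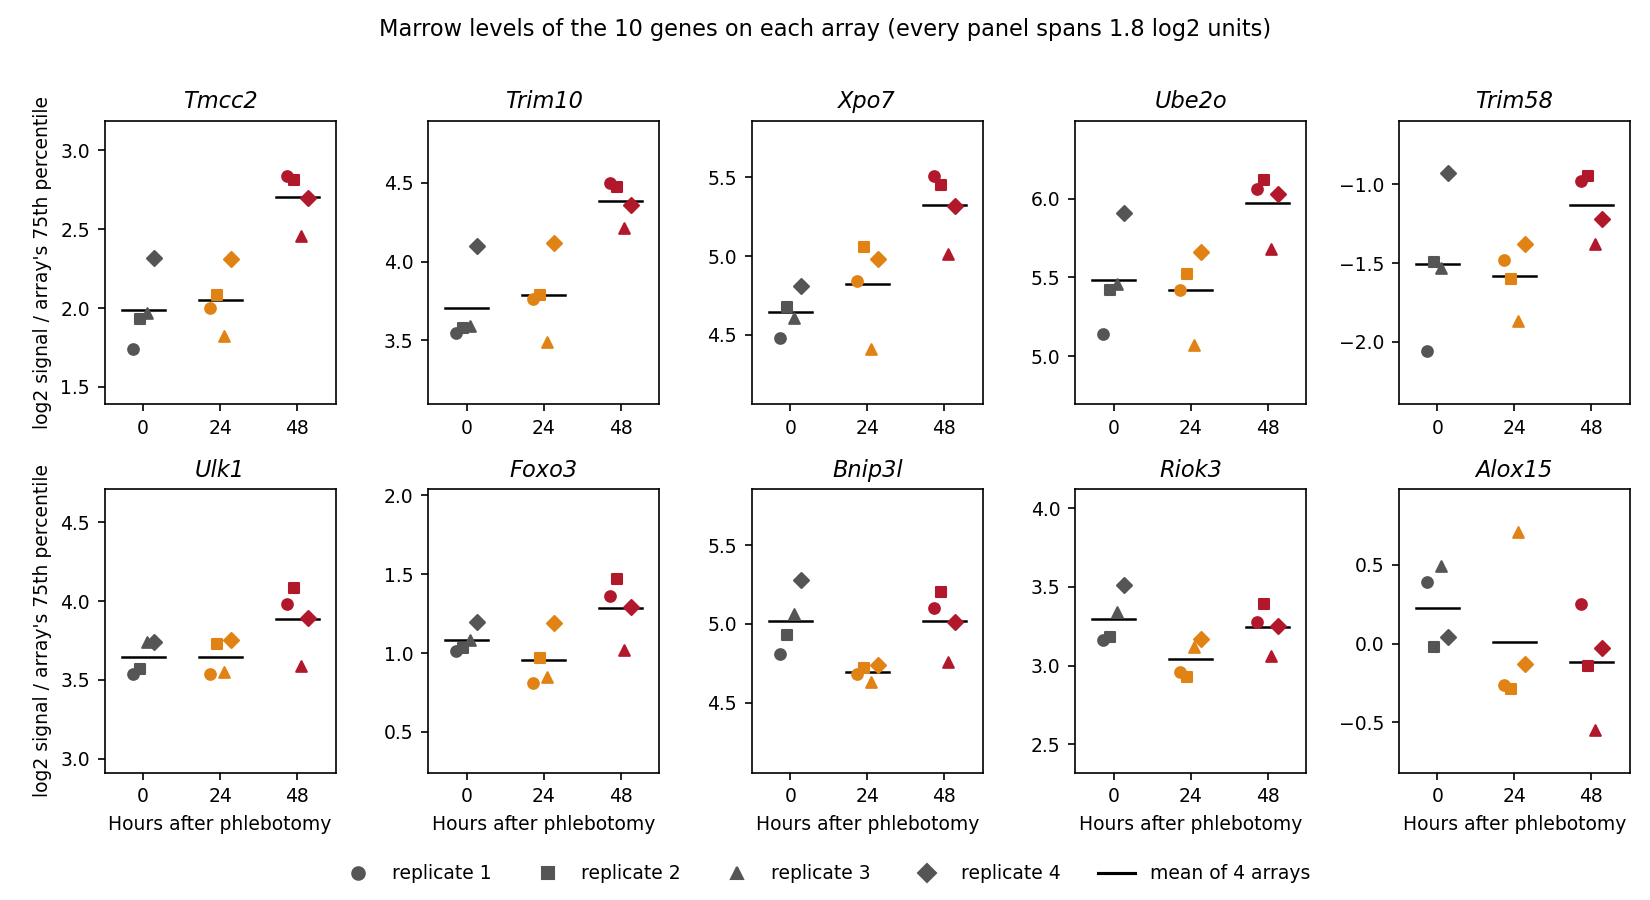
Marrow levels of the 10 genes on each of 12 arrays, as log2 signal over the array's 75th percentile, by hours after phlebotomy, with symbols for replicate numbers and a line for the mean of 4 arrays. The 48 h arrays of Tmcc2 (2.46 to 2.84), Trim10 (4.21 to 4.50) and Xpo7 (5.01 to 5.51) all lie above the 0 h arrays, and those of Alox15 spread from -0.55 to 0.25.

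For Tmcc2, the 4 marrow arrays at 0 h gave 1.74, 1.93, 1.97 and 2.32, those at 24 h 2.0, 2.08, 1.82 and 2.31, and those at 48 h 2.84, 2.81, 2.46 and 2.70. Every 48 h array was above every array at 0 h and 24 h, while the 24 h arrays lay within the range of 0 h. The change at 48 h was 0.71 (SE 0.14, 95% interval 0.40 to 1.03, adjusted p = 0.0405 in limma). The exact two-sided permutation test gave p = 0.0286, the smallest that 4 arrays against 4 allow. The call was close to the threshold: of 20 alternatives, left-out arrays included, 9 called Tmcc2. Its adjusted p was 0.0128 with array weights and 0.0184 with a trended robust fit, but 0.107 with the slide as a block and 0.0576 with quantile normalization. Without one array it was 0.116, 0.129 and 0.12 (marrow 0 h replicates 1, 2 and 3) and 0.108, 0.148 and 0.1 (marrow 48 h replicates 1, 2 and 4), with changes from 0.63 to 0.71. The call held without marrow 0 h replicate 4 (0.0191) and without marrow 48 h replicate 3 (0.0358). Within the 3 slides, each with all groups, the change was 1.0, 0.66 and 0.38.

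Trim10 read 3.55, 3.58, 3.59 and 4.1 at 0 h, 3.76, 3.79, 3.49 and 4.12 at 24 h, and 4.50, 4.47, 4.21 and 4.36 at 48 h. The 0 h array at 4.1 stood apart from its group, yet the lowest 48 h array was still above it. The difference at 48 h was 0.68 (SE 0.15, adjusted p = 0.0597), and without that 0 h array it was 0.81 (adjusted p = 0.0213). With any other of the 8 arrays left out, the adjusted p in limma was between 0.0716 and 0.193. Of 20 alternatives, left-out arrays included, 4 called Trim10. Within the slides the difference was 0.94, 0.75 and 0.26.

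Xpo7 was represented by a probe that read 4.48, 4.68, 4.61 and 4.81 at 0 h, 4.84, 5.06, 4.41 and 4.98 at 24 h, and 5.51, 5.45, 5.01 and 5.32 at 48 h. The 48 h arrays were again all above 0 h, and at 24 h replicate 3 lay below every 0 h array while the other 3 lay above them. The difference at 48 h was 0.67 (SE 0.15, adjusted p = 0.0597), and without marrow 48 h replicate 3 it was 0.78 (adjusted p = 0.0402). With any other of the 8 arrays left out, the adjusted p in limma was between 0.0752 and 0.195. Of 20 alternatives, left-out arrays included, 3 called Xpo7. Within the slides the difference was 0.93, 0.62 and 0.51.

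Ube2o followed, with 5.14, 5.42, 5.46 and 5.91 at 0 h and 6.06, 6.12, 5.68 and 6.03 at 48 h. Of the 48 h arrays, 3 exceeded all 0 h arrays, and 48 h replicate 3 did not. The difference was 0.49 (SE 0.17, adjusted p = 0.198). Trim58 differed by 0.36 (SE 0.21, adjusted p = 0.415), with 0 h arrays as far apart as -2.06 and -0.93. Ulk1 differed by 0.24 (SE 0.11, adjusted p = 0.320), with 0 h levels of 3.54 to 3.74 and 48 h levels of 3.59 to 4.08. None of these passed the threshold, and their intervals reach from 0.11 to 0.87 for Ube2o, from -0.09 to 0.82 for Trim58 and from 0.00 to 0.48 for Ulk1.

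Bnip3l and Riok3 had lower means at 24 h and did not pass at either time. Bnip3l read 4.81, 4.93, 5.06 and 5.28 at 0 h, 4.68, 4.72, 4.63 and 4.74 at 24 h, and 5.10, 5.20, 4.76 and 5.01 at 48 h. The 24 h arrays were close together and all below 0 h, while 3 of the 48 h arrays lay within the 0 h range and replicate 3 just below it. The difference was -0.33 at 24 h (SE 0.12, adjusted p = 0.260, exact permutation p = 0.0286) and 0.00 at 48 h (95% interval -0.26 to 0.25). The second Bnip3l probe gave -0.36 at 24 h and 0.01 at 48 h, and without marrow 24 h replicate 2 the first gave -0.34. Riok3 read 3.16, 3.18, 3.34 and 3.51 at 0 h and 2.96, 2.93, 3.12 and 3.17 at 24 h. Those groups overlapped by 1 array only, with a difference of -0.25 (SE 0.10, adjusted p = 0.343), and at 48 h the difference was -0.05. Alox15 was the only one of the 10 whose mean was below 0 h by over 0.3 at 48 h, with a difference of -0.34 (SE 0.24, adjusted p = 0.509). Its arrays read 0.39, -0.02, 0.49 and 0.04 at 0 h and 0.25, -0.14, -0.55 and -0.03 at 48 h, and these overlapped.

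At 24 h 0 of the 10 were called in marrow (limma, 2 with an unadjusted p under 0.05), in a comparison where 1.01% of all genes were. Of all genes in marrow, 12.6% had an unadjusted p under 0.05 in limma at 24 h and 16% at 48 h. The median change of the 10 at 24 h was -0.07 against -0.02 over all genes. Beside Bnip3l and Riok3 the other 8 lay between -0.22 for Alox15 and 0.18 for Xpo7. Bnip3l was the only one without overlap, against 8.27% of all genes. That count of 0 was the same without marrow 24 h replicate 2. Set directly against 24 h, the 48 h arrays were higher for 9 of 10 genes, Alox15 excepted, with a median of 0.39 against 0.03 over all genes. Again 0 of 10 were called, in a comparison that called 0.00467% of all genes. An unadjusted p under 0.05 in limma was found for 7 of the 10 and for 7.68% of all genes. The groups were apart for 4 of the 10 and for 3.71% of all genes. This comparison shares its 48 h arrays with that against 0 h.

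**Figure D3:**
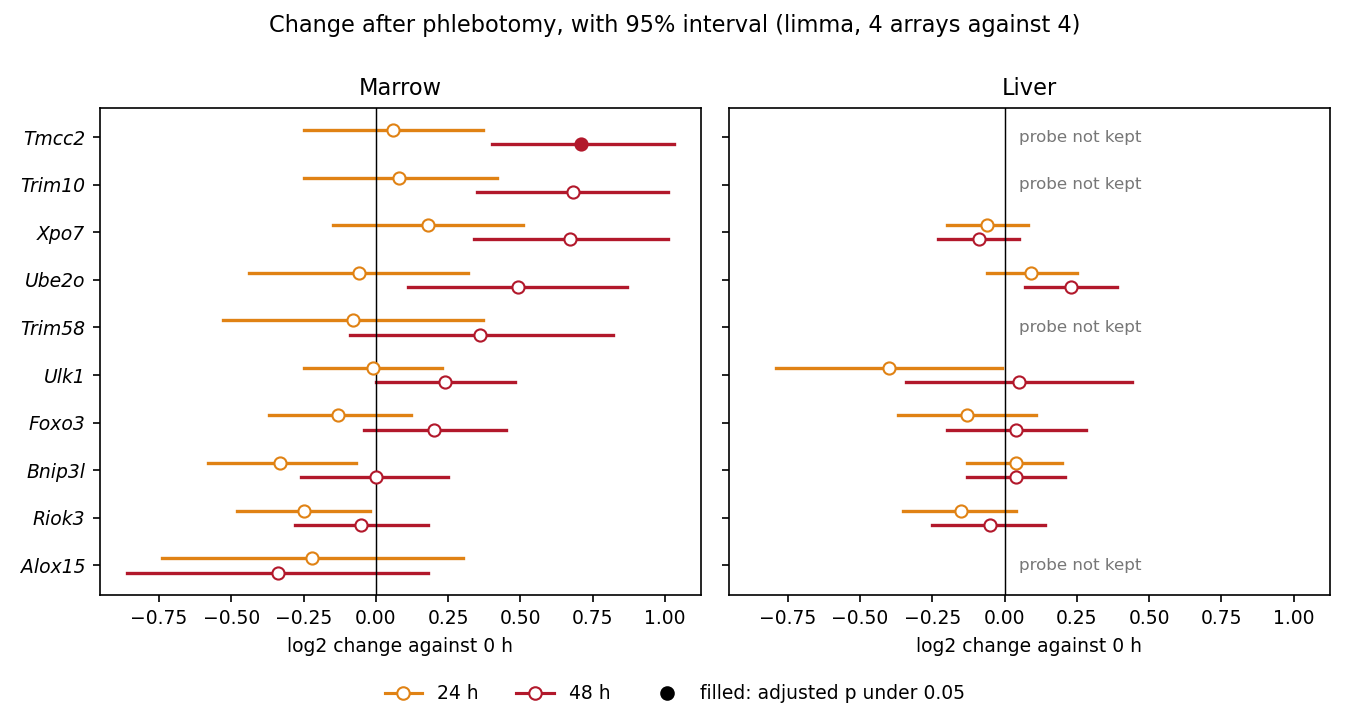
Change of each gene at 24 h (orange) and 48 h (red) against 0 h in marrow and liver, in log2 units, with the 95% interval from limma on 4 arrays against 4 and a filled point where the adjusted p was under 0.05. The only filled point is Tmcc2 in marrow at 48 h (0.71), and in liver 4 genes have no kept probe.

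In liver the changes of the 6 genes tested lay between -0.40 and 0.23: 0 of 6 were called at 24 h, at 48 h or between them (limma, 1 with an unadjusted p under 0.05 in each), as were 0% of all 19649 genes in all 3 comparisons. Of all liver genes, 10.9%, 6.44% and 7.63% had an unadjusted p under 0.05 in these 3 comparisons. Ube2o read 1.37, 1.53, 1.33 and 1.46 at 0 h and 1.53, 1.70, 1.70 and 1.67 at 48 h. Its groups touched without crossing at the 2 decimals given, and the difference was 0.23 (SE 0.07, adjusted p = 0.626, exact permutation p = 0.0286). It was the only one of the 6 without overlap at 48 h, against 4.2% of all liver genes, and there was none at 24 h, against 5.53%. Ulk1 read 4.69, 4.11, 4.49 and 4.22 at 0 h, 3.71, 3.80, 3.96 and 4.44 at 24 h and 4.70, 4.41, 4.19 and 4.43 at 48 h. Of its 24 h livers, 3 were below all 0 h livers and replicate 4 was not, with a difference of -0.40 (SE 0.18, adjusted p = 0.446). Between 24 and 48 h, 0 of 6 genes were apart, against 3.66% of all genes, and Ulk1 differed most, by 0.45 (SE 0.18, adjusted p = 0.583). Xpo7 in liver read 2.20, 2.32, 2.23 and 2.33 at 0 h and 2.21, 2.15, 2.16 and 2.18 at 48 h, a difference of -0.09 with an interval of -0.23 to 0.05.

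The late erythroid markers were used as a measure of red cell transcripts in liver. Of 24, 13 to 17 were above background on a 0 h liver, 14 to 17 at 24 h and 14 or 15 at 48 h. Sptb, Rhag and Add2, which encode red cell membrane proteins, were above background on 0 of 12. The summed level of all 24, globins included, was 257 to 317 times the 75th percentile at 0 h, 357 to 379 at 24 h and 353 to 523 at 48 h, and the range at 0 h lay below both others. A sum weighs the brightest genes most. The mean log2 level of the same 24 overlapped between the times. It was -1.83 to -0.95 at 0 h, -1.62 to -1.12 at 24 h and -1.6 to -0.81 at 48 h. Among the 15 tested in liver, 0 were called at 48 h (limma, 8 with an unadjusted p under 0.05, against 6.44% of all genes). Of the 15, 11 were higher and the median was 0.09. The smallest p belonged to Hba-a1, an alpha-globin gene, with a difference of 0.88 (SE 0.13, adjusted p = 0.268).

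Whether the 2 tissues changed unequally after bleeding was tested over all 24 arrays, where the 6 genes above background in both can be read. At 48 h it was called for Xpo7, whose change was 0.77 larger in marrow than in liver (SE 0.17, 95% interval 0.42 to 1.12, adjusted p = 0.0445), and for 0.413% of all genes. With 4 mice at each time for both tissues, livers and marrows would share mice, but the labels do not state whether one replicate number marks one mouse. This fit therefore took no pairing into account. With liver and marrow of one time and number as a random block, the adjusted p for Xpo7 was 0.0259 in limma. The Xpo7 call too was marginal: of 27 alternatives, left-out arrays included, 8 kept it. Its adjusted p was 0.00975 with array weights and 0.0241 with a trended robust fit, but 0.0653 with the slide as a block and 0.147 with quantile normalization. Leaving out one array kept the call for marrow 0 h replicate 4 (0.0405) and marrow 48 h replicate 3 (0.0206). With any other array of the 16 left out the adjusted p was between 0.0527 and 0.129. The difference lay between 0.71 and 0.87 in all 16. For Ube2o the difference was 0.26 (adjusted p = 0.674), and the other 4 genes lay between -0.04 and 0.18. At 24 h 0 of these 6 were called, against 0.364% of all genes. In limma 1 of the 6 had an unadjusted p under 0.05, against 11.4% of all genes. This was Bnip3l, with a change that was 0.36 lower in marrow (-0.36, SE 0.14, adjusted p = 0.291).

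Marrow changes were then set against the late erythroid transcripts of the same arrays, since these moved as well. The mean of 24 late erythroid markers, such as band 3 (Slc4a1) and the globins, stood at 5.05 ± 0.21 on the 0 h arrays, at 5.05 ± 0.18 after 24 h and at 5.42 ± 0.19 after 48 h. Of these markers 3 rose at 48 h, namely Rhag (0.74, SE 0.14, adjusted p = 0.0357), the adducin gene Add2 (0.70, SE 0.14, adjusted p = 0.0405) and the claudin gene Cldn13 (0.66, SE 0.13, adjusted p = 0.0439). In all 23 of 24 were higher at 48 h, with a median of 0.37. In limma 15 of the 24 had an unadjusted p under 0.05 at 48 h, against 16% of all genes. The groups were apart for 7 of the 24, all with 48 h higher, against 12.7% of all genes in either direction. At 24 h 12 of 24 were higher, with a median of 0.00 and 0 called (limma, 6 with an unadjusted p under 0.05). Subtracting the marker mean array by array removes the scaling of the array.

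**Figure D4:**
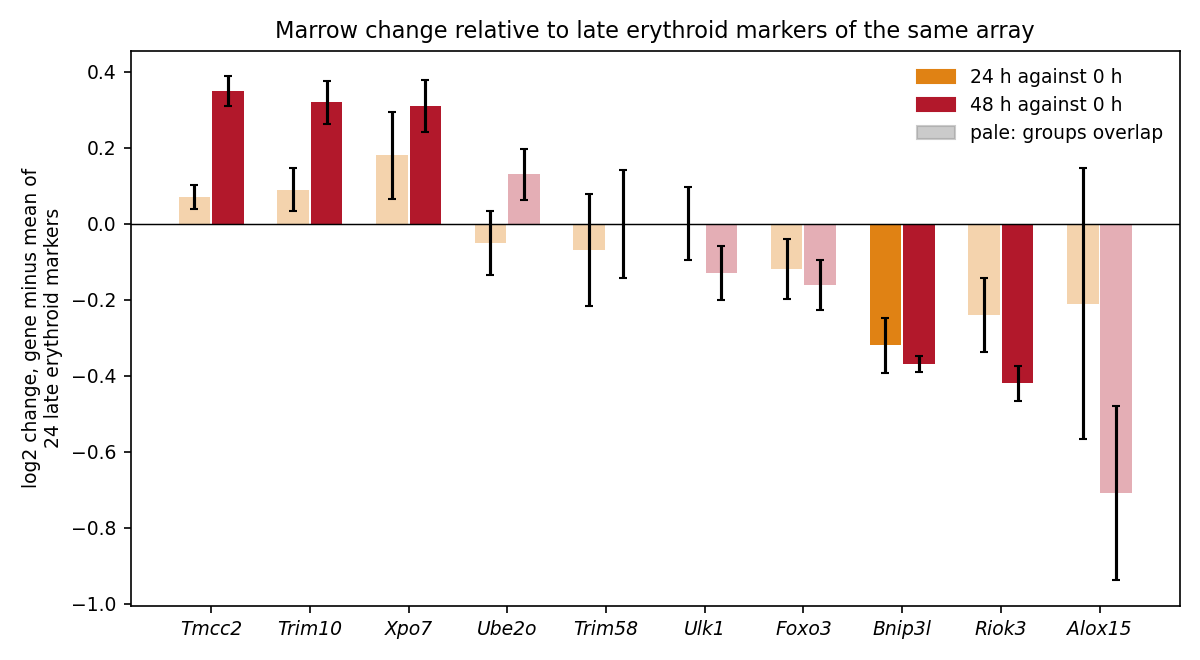
Marrow change of each gene minus the change of the mean of 24 late erythroid markers on the same arrays, in log2 units, at 24 h (orange) and 48 h (red) against 0 h, with bars for the difference of means, error bars for its standard error over 4 arrays against 4, and pale bars where the groups overlap. Tmcc2 (0.35), Trim10 (0.32) and Xpo7 (0.31) stand above the markers at 48 h, and Bnip3l (-0.37) and Riok3 (-0.42) below them.

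On this scale the median of all 21399 genes was -0.36 at 48 h (-0.02 at 24 h), since the marker mean itself was 0.36 higher, so a gene with no change of its own reads below 0. Tmcc2 went from -3.06 ± 0.05 at 0 h to -2.71 ± 0.06, a difference of 0.35, Trim10 from -1.35 ± 0.08 to -1.03 ± 0.08, and Xpo7 from -0.41 ± 0.11 to -0.10 ± 0.08. Bnip3l went from -0.03 ± 0.04 to -0.40 ± 0.01 and Riok3 from -1.76 ± 0.07 to -2.17 ± 0.06, while their own changes were 0.00 and -0.05. In these 5 the groups of 4 did not overlap, with an exact permutation p of 0.0286 each, the smallest that 4 arrays against 4 allow. After adjustment over the 20 relations computed this became 0.0953, so none passed. At that smallest p the adjusted value depends only on how many of the 20 reach it, whatever the size of the change, so it cannot decide for single genes. Of all genes 17.7% did not overlap at 48 h on this scale, 0.687% higher and 17.1% lower. For Bnip3l the groups were apart at 24 h too (-0.32, exact permutation p = 0.0286, adjusted 0.0953), as for 4.07% of all genes. Alox15 was the lowest at 48 h, at -0.71, with overlapping groups (exact permutation p = 0.0571). Ube2o (0.13), Trim58 (0.00), Ulk1 (-0.13) and Foxo3 (-0.16) overlapped. Against the mean of 12 early erythroid and progenitor markers in place of the late ones, the 48 h differences were 0.43 for Tmcc2, 0.40 for Trim10, 0.39 for Xpo7, -0.28 for Bnip3l and -0.33 for Riok3. Over the 12 alternatives run for these, left-out arrays included, the 5 kept their sign, with the narrowest margin for Xpo7 (0.2 to 0.39).

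Several probes of one gene did not always move alike. Xpo7 had 8 probes, of which 7 were kept in marrow. At 48 h, 5 of these differed from 0 h by 0.64 to 0.77, among them the probe built on the transcript that the array annotation calls late erythroblast protein 2, at 0.77 (SE 0.26, adjusted p = 0.186 over all kept probes). The other 2 differed by 0.07 and 0.09. At 0 h each of the 5 read at least 1.65-fold higher in marrow than in liver, and 3 of them were above background on 0 or 1 of 12 livers. Of the other 2, one read 1.26-fold higher in marrow, with 1 liver array left out as an outlier spot, and one read 1.41-fold higher in liver. Positions are given by the array annotation in mm9: the representative probe lies at chr14:71064714-71064773, and those 2 at chr14:71054085-71054144 and chr14:71080368-71080427. Beside the last lies a probe built on the same cDNA that differed by 0.74 (chr14:71080197-71080255). Which exons or introns these probes match was not analysed here.

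**Figure D5:**
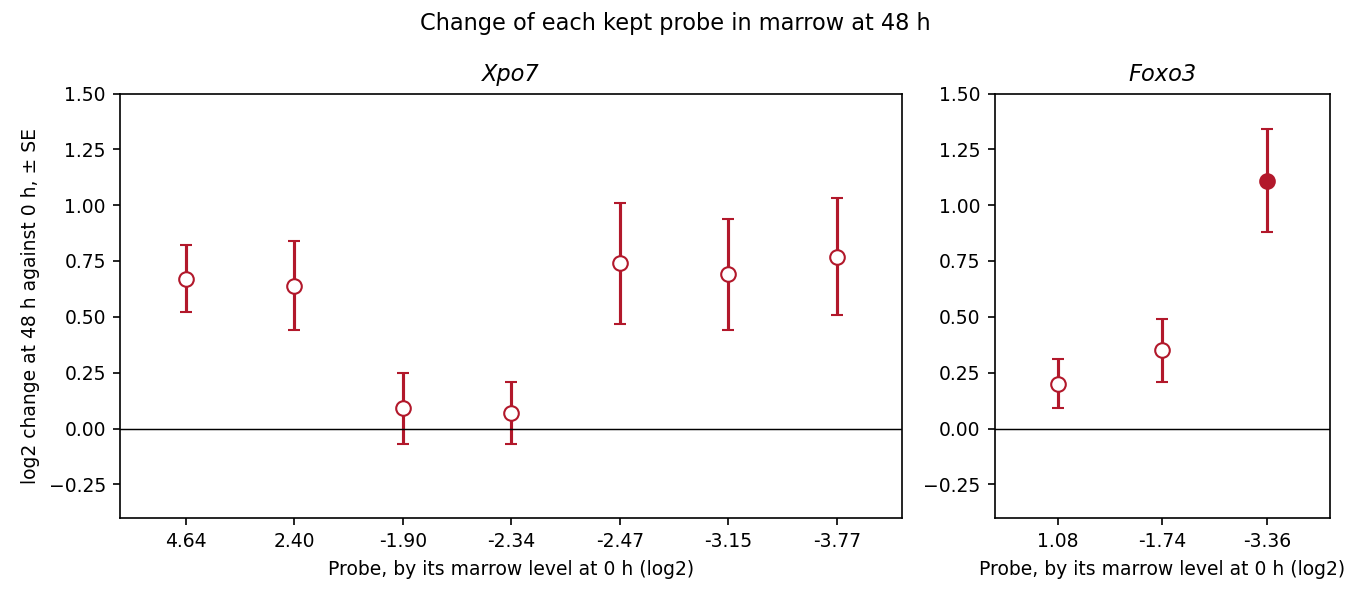
Change at 48 h against 0 h of each kept marrow probe of Xpo7 and Foxo3, in log2 units with the standard error from limma, ordered by the probe's marrow level at 0 h, with a filled point where the adjusted p over all kept probes was under 0.05. Xpo7 has 5 probes between 0.64 and 0.77 and 2 below 0.10, and the dimmest Foxo3 probe is at 1.11.

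Foxo3 had 3 probes. The brightest, at chr10:41901997-41902056, read 1.01, 1.03, 1.08 and 1.2 at 0 h and 1.36, 1.47, 1.02 and 1.29 at 48 h, a difference of 0.20 (SE 0.11, adjusted p = 0.403). The probe at chr10:41994961-41995020 read -3.20, -3.49, -3.59 and -3.18 at 0 h, -3.09, -3.07, -3.17 and -2.78 at 24 h, and -2.45, -2.57, -1.44 and -2.54 at 48 h. All its 48 h arrays were above all others, and replicate 3 stood apart as the highest, at -1.44. On the brightest probe and on the third one, replicate 3 was instead the lowest 48 h array, at 1.02 and -1.72. Tested with all kept probes, the probe at chr10:41994961-41995020 rose by 1.11 (SE 0.23, adjusted p = 0.0417 in limma), a value that includes replicate 3. The third probe differed by 0.35 (SE 0.14, adjusted p = 0.273). With the mean of the 3 probes in place of the brightest, Foxo3 rose by 0.56 at 48 h (adjusted p = 0.0252), so the call for this gene depends on the probe.

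Across the 12 marrow arrays, Tmcc2 and Trim10 varied together (Pearson r = 0.984), as did Tmcc2 and Ube2o (r = 0.955), Trim10 and Xpo7 (r = 0.922), Ulk1 and Foxo3 (r = 0.922) and Bnip3l and Riok3 (r = 0.912). Bnip3l and Xpo7 shared less (r = 0.425), and Alox15 had a correlation of -0.31 with the mean of the other 9. These arrays share 3 times and their slides, so the values describe and do not test. The candidates were 14110 other named genes tested in marrow, each with a value on all 12 arrays. Those most like the mean of the 10 were Rusf1 (r = 0.991), Hectd4 (0.989), Slc38a5 (0.984), St3gal5 (0.975), Usp44 (0.975) and Dennd2c (0.974). The same 6 genes came out without marrow 24 h replicate 2. Most like Tmcc2 were Slc4a1 (0.982), Ypel4 (0.979) and E2f2 (0.972), the last replaced by Snx22 (0.981) without that array.

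The lists of related processes held 112 genes tested in marrow. Of these, 3 (2.68%) were called at 24 h and 6 (5.36%) at 48 h, against 1.01% and 1.23% of all genes. Because the lists were chosen with earlier results of these data known, these shares are no test of the lists. Trim15, which passed the filter only through the later groups, counts in both shares. Among 18 genes of enucleation and nuclear condensation, Plek2, which encodes an actin-associated protein of late erythroblasts, rose at both times, from -2.24, -2.41, -2.19 and -1.98 at 0 h to 0.07, -0.18, -0.41 and -0.05 at 24 h and -0.08, -0.02, -0.06 and -0.36 at 48 h. The 8 later arrays were all over 1.5 units above the 0 h arrays, with changes of 2.07 (SE 0.13, adjusted p = 2.27e-05) and 2.08 (SE 0.13, adjusted p = 1.6e-05). It was the only call of its list, whose median was 0.01 and 0.02. Of the TRIM genes that lie beside Trim10, 3 of 5 were tested. The probe of Trim15 passed the filter only through the 24 h and 48 h marrow groups, where all arrays measured it, and its test uses 0 h readings (-6.47 to -5.23) that were not well above background. It was at least 6.07-fold higher at 24 h (adjusted p = 0.000532) and at least 3.92-fold higher at 48 h (adjusted p = 0.00199). Trim26 differed by -0.24 and -0.12 and Trim39 by -0.04 at both times, with none called.

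Of 15 genes of autophagy initiation and nucleation, 0 were called at 48 h (limma, 1 with an unadjusted p under 0.05), and of 20 of conjugation and cargo binding 0 (5 unadjusted), with medians of 0.05 and 0.04. In the latter the smallest p-values belonged to Atg4c (-0.27, SE 0.08, adjusted p = 0.111) and Atg4d (0.38, SE 0.11, adjusted p = 0.116), proteases that process the LC3 family. At 24 h both lists had 0 calls as well (0 and 2 unadjusted), with medians of -0.02 and 0.00. Of 8 other mitophagy genes, Bcl2l13, a mitochondrial receptor for autophagy, rose by 0.43 at 48 h (SE 0.08, adjusted p = 0.0273), and Phb2 (0.23, adjusted p = 0.173) and Pink1 (0.34, adjusted p = 0.216) did not pass. Of 15 genes of the CTLH ubiquitin ligase and reticulocyte conjugating enzymes, which like Ube2o tag proteins for removal, 0 were called (4 with an unadjusted p under 0.05 in limma at 48 h) and 12 were higher at 48 h, with a median of 0.14. Ranbp10 (0.50, SE 0.13, adjusted p = 0.0964) and Gid8 (0.31, SE 0.09, adjusted p = 0.117) had the smallest p-values. Of 15 FOXO target genes tested, Gadd45a (0.60, SE 0.09, adjusted p = 0.0113) and the peroxiredoxin gene Prdx2 (0.59, SE 0.12, adjusted p = 0.0465) rose at 48 h, and the list's median was -0.02. Among 18 tested paralogs of the 10 genes, the exportin gene Xpo4 rose at both times, by 0.52 (adjusted p = 0.0217) at the earlier and 0.60 (adjusted p = 0.0086) at the later. The nearest relative of Xpo7, Ranbp17, differed by 0.73 at 48 h (SE 0.17, adjusted p = 0.0647), and Bnip3, the relative of Bnip3l, by 0.31 at the earlier time (adjusted p = 0.411) and 0.06 at the later (adjusted p = 0.879).

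Markers of other cell types were read beside these genes. Of 12 early erythroid and progenitor markers 2 rose at both times, Tfrc, the transferrin receptor (0.80 then 1.02, adjusted p = 0.0143 then 0.00325), and Hspd1 (0.47 then 0.41, adjusted p = 0.0145 then 0.0301). The list as a whole was mixed: 7 of 12 were higher at 24 h and 8 of 12 at 48 h, with medians of 0.16 and 0.40. At 48 h the groups were apart for 5 with 48 h higher and for 2 with 48 h lower, against 8% and 4.69% of all genes. All 9 eosinophil markers were below 0 h at 48 h, with a median of -0.28 and 0 calls (2 with an unadjusted p under 0.05 in limma), and their summed level was 387 to 625 at 0 h and 379 to 494 at 48 h. All 9 were above background on every marrow array. Of 11 macrophage markers tested, 10 were lower at 24 h and at 48 h, with medians of -0.36 and -0.34 and 0 calls (6 and 5 with an unadjusted p under 0.05), and Cd5l, at -0.61 and -0.70 (adjusted p = 0.0926 and 0.0518), differed most. Alox15 lay lower at 48 h beside both of these lists, and their part in its level was not tested.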

How the data were processed

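RNA of 12 livers and 12 marrows was measured, 1 array per sample, grouped by their titles. Per the file headers, intensity came from Agilent Feature Extraction 10.10.1.1, whose processed intensity used here is corrected for background within each array. The log2 table deposited by the authors, whose making is not given in the sources used here, served only as an alternative.

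Of 62976 spots, 3671 control spots and spots marked as outliers were left out, and spots of a probe were averaged (56605 probes). The log2 intensity minus the array's log2 75th percentile over non-control spots was used. Probe positions are in mm9, per the file headers. Gene names were brought up to date through RefSeq tables of GRCm38.p6: 32994 probes by accession, 10224 by symbol, 520 by synonym, and 12867 kept the name in the files. A gene was represented by its kept probe of highest mean. A probe below background on all arrays of a group gives a bound, "at least N-fold", against the higher of its own value and the array's lowest signal above background.

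Changes were tested with limma 3.58.1 (R 4.3.3; lmFit, eBayes, two-sided), the 3 times of a tissue in one fit over 12 arrays, and tissues compared by an interaction over 24 arrays. P-values were adjusted by Benjamini-Hochberg over all genes. Single values were compared by exact permutation of 4 arrays against 4. The scripts were tested on simulated data. Every change given for a gene is for its representative probe unless another is named. All 10 genes were named in each comparison. From each list, up to 4 called genes of the largest change were named, or the 2 of smallest p, with a few further genes chosen after their values were seen. The genes and lists were chosen with earlier results of these data known. Some genes of the lists are counted but not reported here by name. Alternatives covered background correction, scaling, filter, probe choice, slide and replicate blocks and left-out arrays, and 2 were added after seeing the data: testing every kept probe, and repeating the marker-relative values under other settings. The number of arrays limits the precision, and p-values set a difference in group means against the spread between these samples.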

Additional observations from a re-analysis of the deposited data

Results flagged for a closer look

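In 48 groups of 4 arrays (10 genes in marrow and 6 in liver at 3 times), 3 held an array whose gap to its nearest neighbour exceeded Dixon's 95% critical share of the group's range, which chance gives in about 1 of 20 groups. Trim10 in marrow 0 h replicate 4 was at 4.1, against 3.55 to 3.59 on the other 3. Alox15 in marrow 24 h replicate 3 was at 0.71, against -0.29 to -0.13. Ube2o in liver 48 h replicate 1 was at 1.53, against 1.67 to 1.70. The change of Xpo7 at 48 h differed between the tissues, by 0.77 in the interaction test.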

How the results depend on the processing

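Of the 10 genes, 1 was called in marrow at 48 h. That count was 3 with array weights and with a trended robust fit, 2 with normexp, with the mean of a gene's probes and with every kept probe, and 0 without the filter on dim probes, with only the 2 times compared, with quantile normalization, with the slide as a block and with the replicate block. It was 0 to 2 with 1 array left out. The tissue difference at 48 h, with 1 call, had 2 with normexp, 0 with the percentile over detected probes, the mean of probes, no filter, quantile normalization or the slide block, and 0 to 1 with 1 array left out. In marrow, same-numbered samples of different times had residual correlations of -0.251 to 0.172, over 0.1 in 6 of 12 pairs. In liver these correlations ran from -0.27 to 0.153, over 0.1 in 3 of 12 pairs. For liver and marrow of one time and number they were 0.00521 to 0.194, over 0.1 in 7 of 12 pairs. Each such pair also shared a slide, so these correlations cannot tell a shared mouse from a shared slide. With the replicate block (for the tissue difference, that pair of samples as a random block, under which Xpo7 had an adjusted p of 0.0259), Tmcc2 at 48 h kept its change of 0.71 with an adjusted p of 0.0566, and calls over all genes were 126 (marrow 24 h), 100 (48 h), 2 (48 h against 24 h), 164 and 167 (tissue difference at 24 and 48 h).

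Over all genes, marrow at 24 h had 217 calls, 439 with array weights, 69 without the filter and 72 to 182 with 1 array left out. At 48 h it had 264, 812 with weights, 100 without the filter, 116 with the slide block and 98 to 234 with 1 array left out. Marrow 48 h against 24 h had 1 call, 2 with weights and 0 with only those times. Liver had 0 calls, and 0 to 2, 0 to 9 and 0 to 1 with 1 array left out, at 24 h, at 48 h and between them. The tissue difference at 24 h had 83 calls, 128 with weights, 22 without the filter, 139 with normexp, 16 with only 2 times and 24 to 176 with 1 array left out. At 48 h it had 94, 198 with weights, 155 with the trended fit, 24 without the filter, 157 with normexp, 148 with probes above background on all arrays, 52 with only 2 times and 29 to 103 with 1 array left out. The cause was not tested.

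Signs turned for these values, none of them called. With the mean of probes, Bnip3l in liver became -0.02 at 24 h and -0.02 at 48 h, its tissue difference at 48 h 0.02, Foxo3 in marrow at 24 h went from -0.13 to 0.09, and Foxo3 relative to the late markers from -0.12 to 0.11 at 24 h and from -0.16 to 0.19 at 48 h. Against early markers, Tmcc2 at 24 h became -0.08 and Trim10 -0.06. With the authors' values Trim58 relative to the late markers became 0.01. With 1 array left out, marrow at 24 h spanned -0.03 to 0.17 for Tmcc2, -0.03 to 0.22 for Trim10, -0.27 to 0.11 for Trim58, -0.18 to 0.08 for Ube2o, -0.04 to 0.03 for Ulk1 and -0.2 to 0.02 for Trim58 relative to the markers. Riok3 at 48 h spanned -0.1 to 0.02, the Bnip3l tissue difference at 48 h -0.11 to 0.05, and in liver at 48 h Foxo3 -0.01 to 0.1 and Ulk1 -0.04 to 0.16.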
